A study of Mus musculus with 6 samples.

Results

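The genes described here make, control or assemble the lysosome, the acidic compartment in which a cell digests what it has taken up. They are 40 genes fixed by name: 15 hydrolases, 4 soluble partners of these enzymes, 7 membrane proteins, 12 genes of the V-type proton pump and 2 transcription factors, Tfeb and Tfe3. All 40 had a row among the 17567 genes of the series, matched through their NCBI Gene number, and all 40 passed the filter on low counts. They were measured by RNA sequencing in mouse immature dendritic cells. Cells of the H2O2 group were exposed to hydrogen peroxide (100 µM, 24 h), an oxidant used to stress cells, and the control group carries no label of an added agent. Both groups were marrow cells of male C57BL/6 mice aged 6 weeks, kept to day 6 with 20 ng/mL GM-CSF, 10 ng/mL interleukin-4 and 10% serum, and then selected on beads against CD11c. Nothing in the labels tells whether replicates are separate animals or cultures, so every p-value measures the spread of these libraries alone, and that spread may be technical.

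Lysosomal enzymes are made in the endoplasmic reticulum and carried to the lysosome, where most of them work only at low pH. The V-type ATPase supplies that acid: its cytosolic V1 sector splits ATP and turns a rotor, and its membrane V0 sector passes protons inward. TFEB and TFE3, basic helix-loop-helix factors of the MiT family, bind a palindromic element in the promoters of many lysosomal genes and are regulated mainly by their location in the cell. In dendritic cells, lysosomal acidity and proteolysis set how antigen is cut for presentation.

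The labels name 3 samples a group, but the third H2O2 file held the same 17567 values as the first and was counted once, which left 2 H2O2 and 3 control libraries of 16232604 to 16672491 estimated counts. The libraries also fell into 2 sets that the treatment does not define. Set A holds H2O2 replicate 1 and control replicate 1, and set B holds H2O2 replicate 2 and control replicates 2 and 3. Transcripts of 4 Y-linked genes were present in set A and nearly absent from set B, although all mice were labelled male. H2O2 was therefore compared with control inside the sets, as a fit over all genes with a term for the set. Levels are given as CPM, counts scaled by library size after TMM correction, which allow a gene to be compared between libraries but not with a longer or shorter gene. On that scale the Y-linked sum was 95.1 and 0.453 CPM in H2O2 replicates 1 and 2, against 102, 0.121 and 0.305 CPM in control replicates 1, 2 and 3. The dendritic cell markers Itgax (CD11c) and Cd74 were abundant. Itgax had 1496 and 2177 CPM in H2O2 replicates 1 and 2, against 1474, 2154 and 1940.1 CPM in control replicates 1, 2 and 3, while Cd209a had no counts in H2O2 replicates 1 and 2 and control replicate 1 and at most 0.363 CPM elsewhere.

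Promoter sequences of the members were examined for the letters that the MiT factors recognise. The windows run from 250 bases before to 50 bases after a start site of RefSeq (GRCm38.p6), and 34 of the 40 members had at least 1, the exceptions being Galns, Asah1, Npc1, Atp6v1b2, Atp6v1c1 and Atp6v1h. The search used CACGTG, the core E-box, its longer form TCACGTGA, and the 10-letter element of the CLEAR network, which contains both. All read the same on either strand, so each match counts once. CACGTG stood in a window of 9 of the 34 members (26.5%), against 11.7% of the 9868 tested genes with a window and 8.09% of 27025 genes. TCACGTGA stood in 5 of the 34 (14.7%), against 2.17% of the tested genes. Among the members the 10-letter element occurred in Cln3 alone. The sequences below are those of the 6 members with more than 1 core, or the longer form, before the start site, and are written 5′ to 3′ along the gene, with the matched letters in capitals.
Atp6v1a (chr16:44139359-44139416, minus strand): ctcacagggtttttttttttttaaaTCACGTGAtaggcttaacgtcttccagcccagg
Atp6v0b (chr4:117887330-117887390, minus strand): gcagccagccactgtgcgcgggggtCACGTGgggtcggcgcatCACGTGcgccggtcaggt
Gla (chrX:134601168-134601255, minus strand): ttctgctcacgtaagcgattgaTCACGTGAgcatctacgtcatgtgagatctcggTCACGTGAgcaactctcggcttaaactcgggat
Cln3 (chr7:126583325-126583410, minus strand): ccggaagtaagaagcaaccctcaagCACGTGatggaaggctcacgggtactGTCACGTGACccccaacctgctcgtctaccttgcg
Mcoln1 (chr8:3500423-3500505, plus strand): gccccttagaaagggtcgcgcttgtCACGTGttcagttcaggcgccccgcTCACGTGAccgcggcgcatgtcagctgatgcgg
Lamp1 (chr8:13159075-13159160, plus strand): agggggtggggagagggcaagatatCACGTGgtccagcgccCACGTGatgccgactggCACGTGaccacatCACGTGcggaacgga
Lamp1 held 4 cores, between 61 and 15 bases before its start site, and Gla held 2 copies of TCACGTGA, with their cores beginning 227 and 194 bases before. In Atp6v1a the core of the single TCACGTGA began 131 bases before the start site. The printed windows of Atp6v1a and Cln3 lie inside the spans of these genes, so the start sites used there are internal ones. Of the 9 members with a core, Atp6v1a and Gla were called higher with H2O2 in the test described next, as were 4 of the 25 members whose window held none. A match describes the letters of the window and is not a measured binding site.

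With H2O2, 9 of the 40 genes rose and none fell. The test was edgeR's quasi-likelihood test with the set term, with p-values adjusted by Benjamini-Hochberg over the 12209 tested genes and a threshold of 0.05. Over all tested genes 3.93% were called higher and 4.61% lower, so the members' 22.5% lies above the background for higher calls. The 9 genes were 6 of 12 proton pump genes, 2 of 15 hydrolases and 1 of 7 membrane proteins. No member fell by DESeq2 or limma-voom either, and in the edgeR fit 0 had a lower level at an unadjusted p under 0.05, where 22 of 40 had a higher one, against 13.7% of all tested genes. In bulk RNA, more cells of a type and more RNA per cell cannot be told apart, and in the same libraries 14 of 15 cell cycle genes fell, whose part in the lysosomal changes was not tested. The rises were small, from 1.24-fold in Atp6v0a1 to 1.52-fold in Gla. Higher calls over all tested genes were 480 of 12209 in the fit with the set term and 0 of 12209 without that term. They were 108 of 12091 without control replicate 3 and 254 of 12103 without control replicate 2. Without H2O2 replicate 2 no member was called, without control replicate 3 only Gla and Lipa were, without control replicate 2 there were 5 calls, and without the set term there were 0, with 5 members at an unadjusted p under 0.05, against 6.99% of all tested genes.

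Directions were alike across most members. A positive log2 change was found in 36 of the 40, against 51.6% of all tested genes, and Galns, Glb1, Manba and Gm2a were the exceptions. In 16 members both H2O2 libraries lay above all 3 controls, against 13.0% of all tested genes. In 30 members the H2O2 library exceeded every control library of its own set in both sets, against 28.5% of all tested genes. In 7 members, 5 of them hydrolases, it moved beyond its controls in opposite directions in the 2 sets, against 26.7% of all tested genes.

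**Figure D1:**
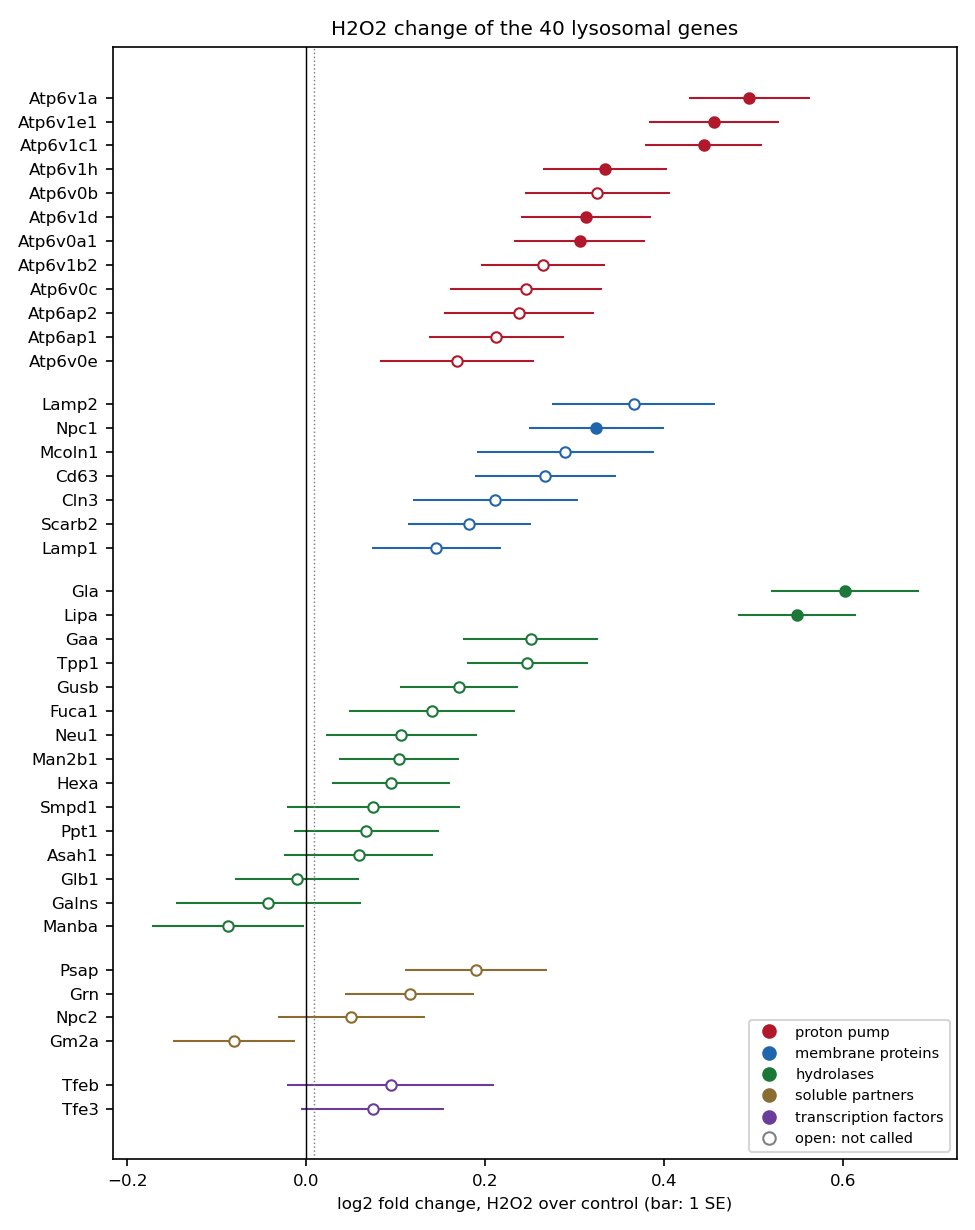
Log2 fold change of H2O2 over control for each of the 40 genes, with bars of 1 SE from edgeR; filled points were called higher and open points were not, and the dotted line marks the median of all tested genes, 0.01. The 12 pump genes lie between 0.17 and 0.50, while 3 of the 15 hydrolases lie below 0.

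The proton pump was the class with the most calls. All 12 of its genes had a positive log2 change in the main fit and in each of the 13 alternative settings, other scalings included, and 6 were called. The median change was 0.31, against 0.01 over all tested genes. In each of the 12, the H2O2 library exceeded every control library of its own set in both sets, against 28.5% of all tested genes. Set A compares 1 library with 1. Summed over the 12 genes, the level was 3997 and 4454 CPM in H2O2 replicates 1 and 2, against 3195, 3729 and 3471 CPM in control replicates 1, 2 and 3.

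The V1 sector held 5 of the 6 calls, among the 6 V1 genes of this group. The further tested V1 genes Atp6v1f, Atp6v1g1 and Atp6v1g2 were not called and are given with the other pump genes. Atp6v1a, which encodes the catalytic A subunit (gene at chromosome 16, 44085402 to 44139702, minus strand, GRCm38.p6), stood at 635 and 681 CPM in H2O2 replicates 1 and 2, against 473, 471 and 460.3 CPM in control replicates 1, 2 and 3. The 3 controls lay within a narrow band and both H2O2 libraries lay well above it. Atp6v1a averaged 658 ± 32.9 CPM with H2O2 (SD, n = 2) and 468 ± 6.84 CPM in controls (SD, n = 3), a 1.41-fold rise (log2 0.50 ± 0.068 SE, adjusted p = 0.0180 by edgeR). It is also the V1 gene printed above with TCACGTGA before a RefSeq start site, at a position inside the gene span given here.

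Atp6v1c1 (chromosome 15, 38661904 to 38692444, plus strand), whose C subunit clamps the sectors together and is released when the pump disassembles, measured 192 and 204 CPM in H2O2 replicates 1 and 2, against 144, 146 and 149 CPM in control replicates 1, 2 and 3. Its groups did not overlap, and it rose 1.36-fold (log2 0.44 ± 0.065 SE, adjusted p = 0.021 by edgeR). Atp6v1e1 (chromosome 6, 120795244 to 120822698, minus strand), a peripheral stalk subunit, measured 240.2 and 291 CPM in H2O2 replicates 1 and 2, against 164, 227 and 219 CPM in control replicates 1, 2 and 3. The span of Atp6v1e1 holds 330 bases of an annotated pseudogene. The groups stood apart here too, although control replicates 2 and 3 approached H2O2 replicate 1. The rise was 1.37-fold (log2 0.46 ± 0.072 SE, adjusted p = 0.0232 by edgeR). 

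Atp6v1h (chromosome 1, 5082978 to 5163213, plus strand), the regulatory H subunit, had 119 and 137 CPM in H2O2 replicates 1 and 2, against 93.1, 113 and 106 CPM in control replicates 1, 2 and 3. It rose 1.26-fold (log2 0.33 ± 0.069 SE, adjusted p = 0.0356 by edgeR), with the lowest H2O2 value just above the highest control, and was called in 6 of the 13 alternatives. Atp6v1d (chromosome 12, 78842982 to 78862008, minus strand), part of the central rotor, had 116 and 126 CPM in H2O2 replicates 1 and 2, against 90.6, 108 and 99.8 CPM in control replicates 1, 2 and 3. It rose 1.24-fold (log2 0.31 ± 0.073 SE, adjusted p = 0.047 by edgeR), close to the threshold. Atp6v1d was called in 3 of the 13 alternatives, the fewest among the 9 called members, and not by DESeq2. Atp6v1b2 (chromosome 8, 69088736 to 69113718, plus strand) encodes the B subunit, which shares the ATP-binding ring with the A subunit, and was the most abundant pump gene by CPM. It measured 904 and 984 CPM in H2O2 replicates 1 and 2, against 738, 861 and 803 CPM in control replicates 1, 2 and 3, so its groups stood apart, but it missed the threshold (log2 0.26 ± 0.069 SE, adjusted p = 0.0635 by edgeR).

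**Figure D2:**
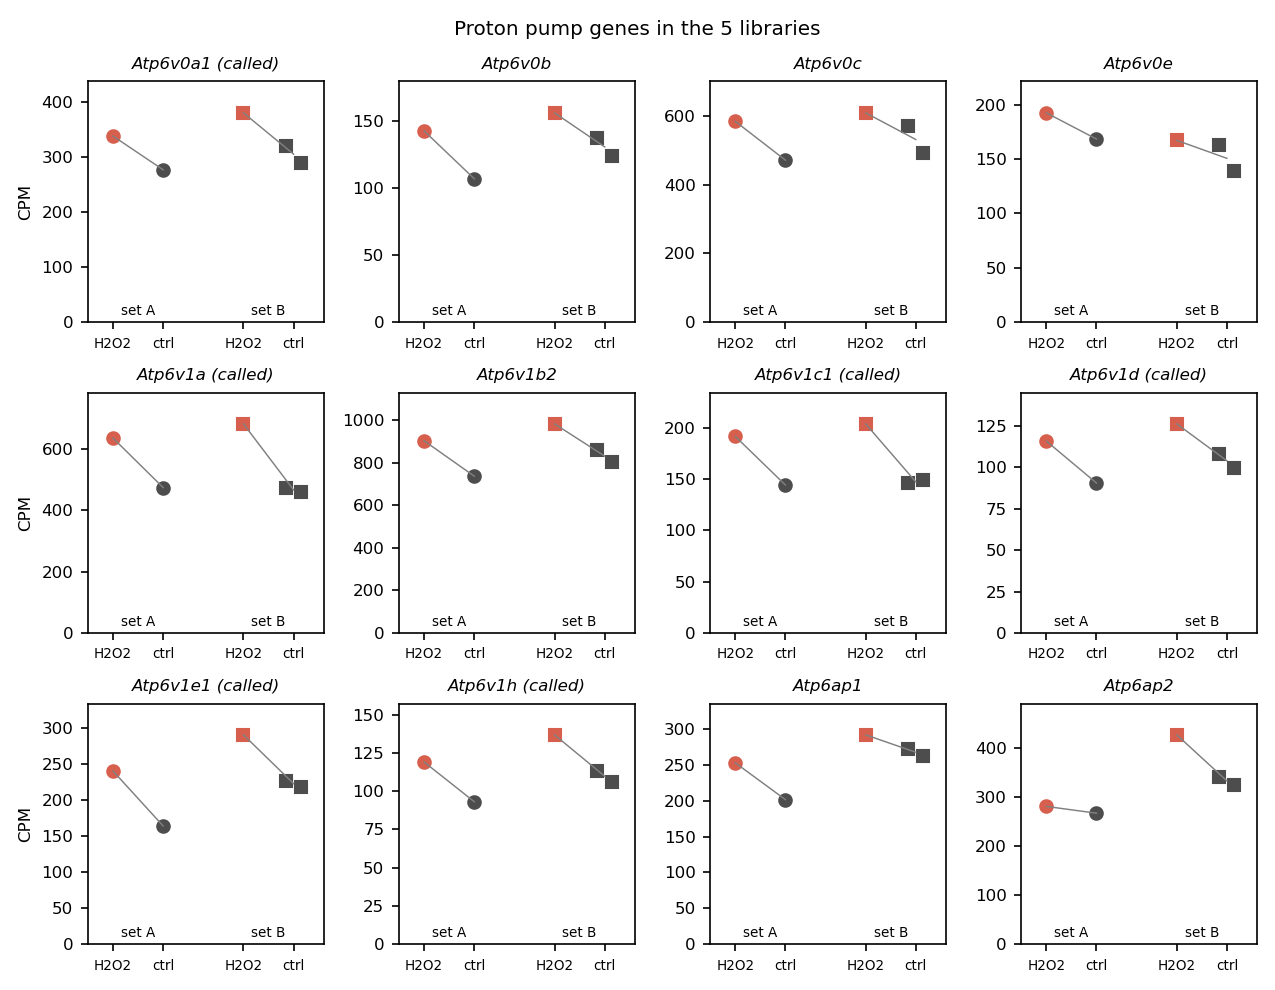
CPM of the 12 proton pump genes in the 5 libraries, with H2O2 (red) to the left of control (grey), circles for set A, squares for set B and lines joining H2O2 to the control mean of its set; every axis starts at 0. The H2O2 library is above the controls of its own set in all 12 genes, and in Atp6v1a both H2O2 libraries lie at 635 CPM or above, with all controls at 473 CPM or below.

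Among the 4 V0 genes 1 was called. Atp6v0a1 (chromosome 11, 101009422 to 101063719, plus strand), a membrane arm of the proton channel, had 338 and 379.8 CPM in H2O2 replicates 1 and 2, against 276, 320.0 and 289.5 CPM in control replicates 1, 2 and 3, and rose 1.24-fold (log2 0.31 ± 0.073 SE, adjusted p = 0.0498 by edgeR). That p lies at the threshold, and Atp6v0a1 was called in 4 of the 13 alternative settings. Atp6v0b, a proteolipid of the rotor ring, measured 143 and 156 CPM in H2O2 replicates 1 and 2, against 107, 138 and 124 CPM in control replicates 1, 2 and 3, with groups that did not overlap (log2 0.33 ± 0.081 SE, adjusted p = 0.0566 by edgeR). The span of Atp6v0b overlaps an annotated non-coding RNA gene, Gm12841, by 3004 bases. Atp6v0c, the main proteolipid and the most abundant pump transcript per length (505 CPM per kb with H2O2 and 432 CPM per kb in controls), measured 585 and 609 CPM in H2O2 replicates 1 and 2, against 472, 569.9 and 493 CPM in control replicates 1, 2 and 3 (log2 0.25 ± 0.085 SE, adjusted p = 0.119 by edgeR). RefSeq lists pseudogenes of Atp6v0c, so that reads could have been split or shared there.

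Atp6v0e, a small V0 subunit, measured 192 and 167 CPM in H2O2 replicates 1 and 2, against 168, 163 and 139 CPM in control replicates 1, 2 and 3, and H2O2 replicate 2 lay below control replicate 1 (log2 0.17 ± 0.086 SE, adjusted p = 0.255 by edgeR). The accessory genes Atp6ap1 and Atp6ap2 encode partners that assemble V0 in the endoplasmic reticulum, and Atp6ap2 is also known as the prorenin receptor. Atp6ap1 had 253 and 293 CPM in H2O2 replicates 1 and 2, against 202, 273 and 264 CPM in control replicates 1, 2 and 3, and Atp6ap2 had 281 and 427 CPM in H2O2 replicates 1 and 2, against 267, 340.4 and 326 CPM in control replicates 1, 2 and 3. In both, the groups overlapped because set A lay below set B, and neither was called (log2 0.21 ± 0.076 and 0.24 ± 0.084, adjusted p = 0.127 and 0.125 by edgeR). The median change was 0.39 for the V1 genes, 0.28 for the V0 genes and 0.23 for the accessory genes. These medians cover the 12 genes alone, and the difference between the sectors was not tested.

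The 7 membrane proteins had positive log2 changes throughout, also in each of the 13 alternative settings, with a median of 0.27 and a single call. In the main fit 51.6% of all tested genes had a positive log2 change. Npc1 (chromosome 18, 12189694 to 12236506, minus strand), which moves cholesterol out of the lysosome together with Npc2, had 331 and 361 CPM in H2O2 replicates 1 and 2, against 263, 306 and 273 CPM in control replicates 1, 2 and 3. Both H2O2 libraries exceeded all controls, and Npc1 was the membrane protein gene that rose (log2 0.32 ± 0.075 SE, adjusted p = 0.0471 by edgeR). The span of Npc1 overlaps that of Rmc1 by 8982 bases, and Rmc1 averaged 45.8 CPM, so that some reads may be shared. Npc1 was called in 4 of the 13 alternatives.

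Lamp2, a heavily glycosylated protein of the lysosomal membrane that also serves chaperone-mediated autophagy, was the most abundant of the class by CPM. It measured 1210.2 and 1339 CPM in H2O2 replicates 1 and 2, against 1073, 969.6 and 914 CPM in control replicates 1, 2 and 3. Its groups did not overlap, with log2 ratios of 0.51 in set B and 0.17 in set A, and it narrowly missed the threshold (log2 0.37 ± 0.091 SE, adjusted p = 0.056 by edgeR). Lamp1, its close relative, had 1040.2 and 981 CPM in H2O2 replicates 1 and 2, against 1003, 864 and 827 CPM in control replicates 1, 2 and 3, with H2O2 replicate 2 below control replicate 1 (log2 0.15 ± 0.072 SE, adjusted p = 0.243 by edgeR). Lamp1, whose window held 4 E-box cores, had the smallest change of the 7. Over the 9 members with a core the median log2 change was 0.25. Over the 25 members with a window and no core it was 0.17. Whether the cores bear on the change was not tested.

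Cd63, a tetraspanin of lysosomes and multivesicular bodies, was the class's highest transcript per length (506 CPM per kb with H2O2 and 424 CPM per kb in controls). It measured 575 and 548 CPM in H2O2 replicates 1 and 2, against 441, 501 and 467 CPM in control replicates 1, 2 and 3, with groups that stood apart but no call (log2 0.27 ± 0.079 SE, adjusted p = 0.0819 by edgeR). Mcoln1, the lysosomal calcium channel TRPML1, measured 32.8 and 38.9 CPM in H2O2 replicates 1 and 2, against 30.4, 29.3 and 28.7 CPM in control replicates 1, 2 and 3 (log2 0.29 ± 0.099 SE, adjusted p = 0.118 by edgeR). Its change was 0.42 in set B and 0.11 in set A. Scarb2, which carries glucocerebrosidase to the lysosome, and Cln3, mutated in juvenile Batten disease, were not called either (log2 0.18 ± 0.069 and 0.21 ± 0.092, adjusted p = 0.145 and 0.193 by edgeR). Cln3, the only one of the 34 with the 10-letter element, was scarce, at 36.8 and 41.3 CPM in H2O2 replicates 1 and 2, against 30.9, 39.0 and 33.8 CPM in control replicates 1, 2 and 3. Its span overlaps that of Apobr by 900 bases, and Apobr averaged 78.1 CPM, so that some reads may be shared.

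Among the hydrolases 2 of 15 rose, and they showed the largest changes of all 40 genes. Gla (chromosome X, 134588169 to 134601005, minus strand), the alpha-galactosidase missing in Fabry disease, measured 119.5 and 116 CPM in H2O2 replicates 1 and 2, against 85.0, 75.5 and 68.2 CPM in control replicates 1, 2 and 3. Both H2O2 libraries lay at nearly the same level and above every control. Gla averaged 118 ± 2.78 CPM with H2O2 (SD, n = 2) and 76.2 ± 8.46 CPM in controls (SD, n = 3), a 1.52-fold rise (log2 0.60 ± 0.083 SE, adjusted p = 0.0180 by edgeR), and was called in 10 of the 13 alternatives. Lipa (chromosome 19, 34492316 to 34527474, minus strand), the acid lipase that frees cholesterol and fatty acids from lipoprotein lipids, was the most abundant hydrolase by CPM. It stood at 955 and 547 CPM in H2O2 replicates 1 and 2, against 679, 367 and 360.3 CPM in control replicates 1, 2 and 3.

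Its groups overlapped, because H2O2 replicate 2 lay below control replicate 1, but inside set A the difference was 0.49 and inside set B 0.59 on the log2 scale. The fit gave a 1.46-fold rise (log2 0.55 ± 0.066 SE, adjusted p = 0.0149 by edgeR), and Lipa was called in 11 of the 13 alternatives, more than any other member.

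The other 13 hydrolases were not called and lay between -0.09 and 0.25 on the log2 scale, and the class median was 0.10. The number above 0 was 12 of 15, against 51.6% of all tested genes. It ranged from 10 to 14 over the alternatives, with 11 when libraries were scaled by their totals. Gaa, the acid glucosidase that breaks down glycogen, and Tpp1, a tripeptidyl peptidase, came next with groups that stood apart. Gaa had 57.2 and 53.5 CPM in H2O2 replicates 1 and 2, against 50.9, 43.8 and 42.4 CPM in control replicates 1, 2 and 3 (log2 0.25 ± 0.075 SE, adjusted p = 0.0864 by edgeR). Tpp1 had 236 and 262 CPM in H2O2 replicates 1 and 2, against 196, 229 and 216 CPM in control replicates 1, 2 and 3 (log2 0.25 ± 0.068 SE, adjusted p = 0.0695 by edgeR). At the other end, Manba, a beta-mannosidase of glycoprotein breakdown, had 68.6 and 73.7 CPM in H2O2 replicates 1 and 2, against 65.6, 83.4 and 86.2 CPM in control replicates 1, 2 and 3 (log2 -0.09 ± 0.085 SE, adjusted p = 0.548 by edgeR).

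None of the enzymes that trim glycoproteins and gangliosides was called. Hexa, the alpha chain of beta-hexosaminidase, stood at 0.09 ± 0.066, Glb1, a beta-galactosidase, at -0.01 ± 0.070, and the sialidase gene Neu1 at 0.11 ± 0.084, all on the log2 scale. Tmppe overlaps Glb1 by 10107 bases, so that reads may be shared there. Man2b1, an alpha-mannosidase, and Fuca1, a fucosidase, stood at 0.10 ± 0.067 and 0.14 ± 0.093. Of the enzymes of glycosaminoglycan breakdown, Gusb stood at 0.17 ± 0.066 and Galns at -0.04 ± 0.103. The ceramidase gene Asah1 and the sphingomyelinase gene Smpd1, both of sphingolipid breakdown, stood at 0.06 ± 0.083 and 0.07 ± 0.097, and the depalmitoylating enzyme gene Ppt1 at 0.07 ± 0.081. Asah1 overlaps Frg1 by 8464 bases. The SEs of these hydrolases reached 0.103, and the smallest change called in any member was 0.31, both on the log2 scale.

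The 4 soluble partners were not called. Psap, the precursor of the saposins that present lipids to hydrolases, was by far the most abundant of the 40, at 6083 CPM per kb with H2O2 and 5418 CPM per kb in controls. It measured 15323 and 17001 CPM in H2O2 replicates 1 and 2, against 13511, 15602 and 14074 CPM in control replicates 1, 2 and 3, and control replicate 2 lay above H2O2 replicate 1 (log2 0.19 ± 0.079 SE, adjusted p = 0.177 by edgeR). Gm2a, the activator of ganglioside GM2 breakdown, had 587 and 555 CPM in H2O2 replicates 1 and 2, against 605, 617 and 581 CPM in control replicates 1, 2 and 3 (log2 -0.08 ± 0.069 SE, adjusted p = 0.487 by edgeR). It was the one member whose H2O2 libraries lay below the controls of their own set in both sets, a pattern seen in 28.0% of all tested genes. Npc2, which hands cholesterol to Npc1, stood at 0.05 ± 0.082, and Grn, the progranulin gene, at 0.12 ± 0.072 on the log2 scale.

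**Figure D3:**
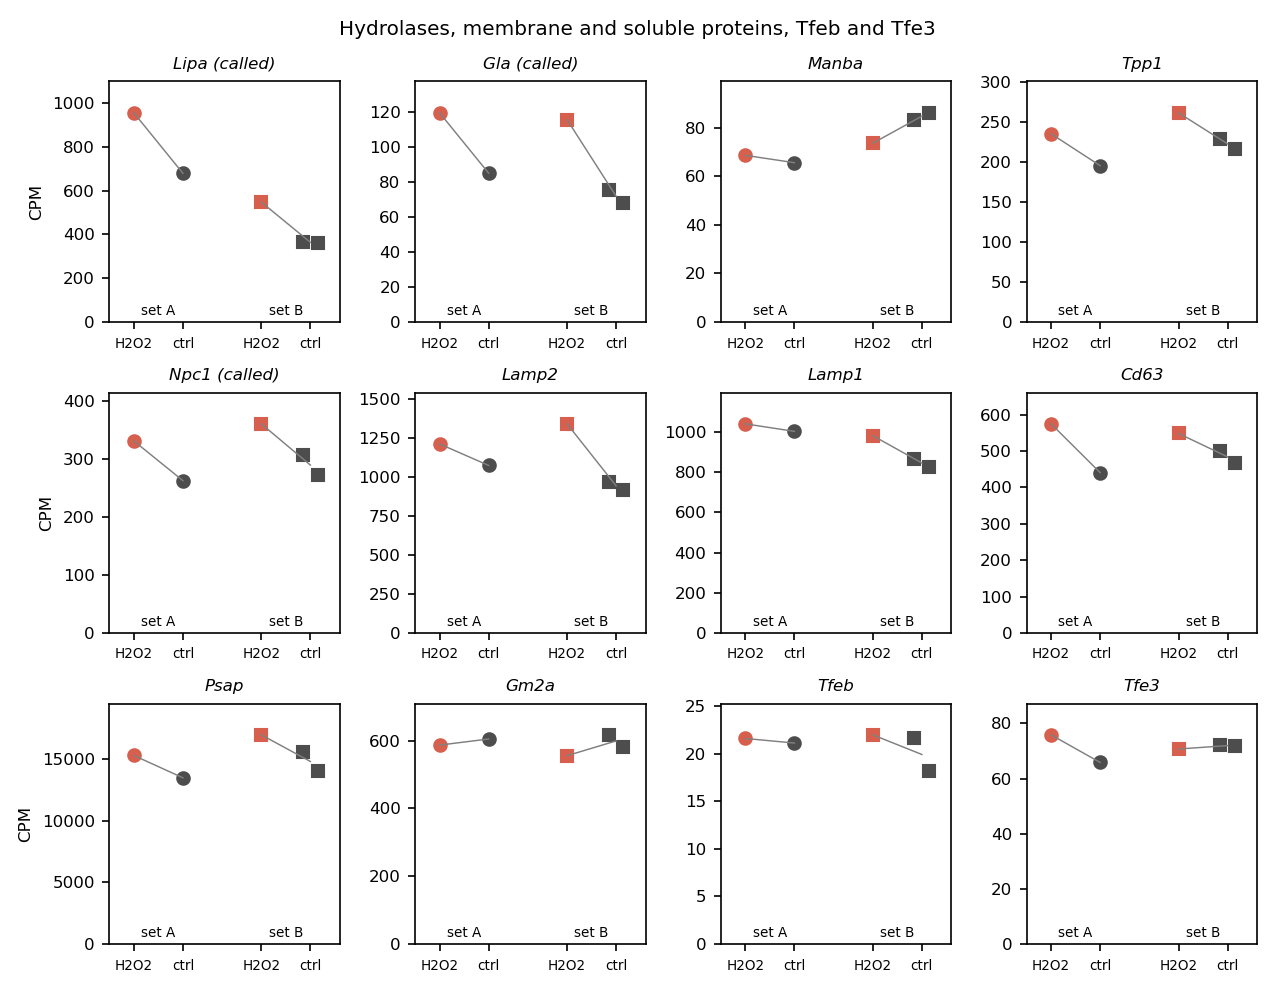
CPM of 12 further members in the 5 libraries, drawn as for the pump genes, with H2O2 (red) left of control (grey) within each set. Gla and Npc1 separate by treatment, Lipa separates by treatment only within a set, and the groups overlap in Manba, Gm2a, Tfeb and Tfe3.

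Neither transcription factor gene was called. Tfeb had 21.6 and 22.0 CPM in H2O2 replicates 1 and 2, against 21.1, 21.6 and 18.2 CPM in control replicates 1, 2 and 3 (log2 0.09 ± 0.116 SE, adjusted p = 0.64 by edgeR). Tfe3 had 75.9 and 70.7 CPM in H2O2 replicates 1 and 2, against 65.9, 72.0 and 71.9 CPM in control replicates 1, 2 and 3 (log2 0.07 ± 0.080 SE, adjusted p = 0.591 by edgeR). In both, values of the groups overlapped, and transcript levels say nothing of where the proteins are in the cell.

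Per length, and in the H2O2 libraries, the order of levels after Psap was Cd63 and Atp6v0c, whose levels are given above, and then Lamp1 with 453 CPM per kb with H2O2 and 403 CPM per kb in controls. Lamp2 followed with 354 CPM per kb with H2O2 and 273 CPM per kb in controls, then Atp6v1b2 with 334 CPM per kb with H2O2 and 283 CPM per kb in controls, and Npc2 with 314 CPM per kb with H2O2 and 285 CPM per kb in controls. In the controls the order differed, with Atp6v0c above Cd63, and Npc2 and Atp6v1b2 above Lamp2. Lengths were those of the longest principal transcript. Lamp2 and Atp6v1b2 differed by less than the spread of their libraries. Tfeb (9.48 CPM per kb with H2O2 and 8.84 CPM per kb in controls) and Smpd1 (8.72 CPM per kb with H2O2 and 8.45 CPM per kb in controls) were the scarcest. All 40 genes together took 2.88% and 2.82% of all counts in H2O2 replicates 1 and 2, against 2.59%, 2.67% and 2.49% in control replicates 1, 2 and 3.

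The sets themselves differed in level for several members, which is described here without a test. Ppt1 was the extreme, at 73.1 and 150.1 CPM in H2O2 replicates 1 and 2, against 63.1, 155 and 153 CPM in control replicates 1, 2 and 3, with a log2 ratio of set A over set B of -1.18. Its H2O2 and control values within a set differed far less than the sets did. The span of Ppt1 overlaps that of Cap1 by 128 bases, and Cap1 averaged 654.5 CPM, so that some reads may be shared. Lipa and Npc2 lay higher in set A (log2 0.86 and 0.65), while Atp6ap2 and Atp6v1e1 lay lower there (-0.44 and -0.37). Of the 12 pump genes 1, Atp6v0e, had a positive log2 ratio of set A over set B, against 49.5% of all tested genes.

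Whether the H2O2 change itself differed between the sets was tested as an interaction in edgeR, with 1 residual degree of freedom. It called 0 of the 40 members, against 0.0164% of all tested genes, and DESeq2 also called 0. At an unadjusted p under 0.05 there were 4 members, Lamp2, Atp6ap2, Manba and Ppt1, against 13.7% of all tested genes. With 5 libraries this does not show that the sets responded alike. The medians within the sets were 0.34 in set A and 0.30 in set B for the pump, and 0.17 and 0.08 for the hydrolases.

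**Figure D4:**
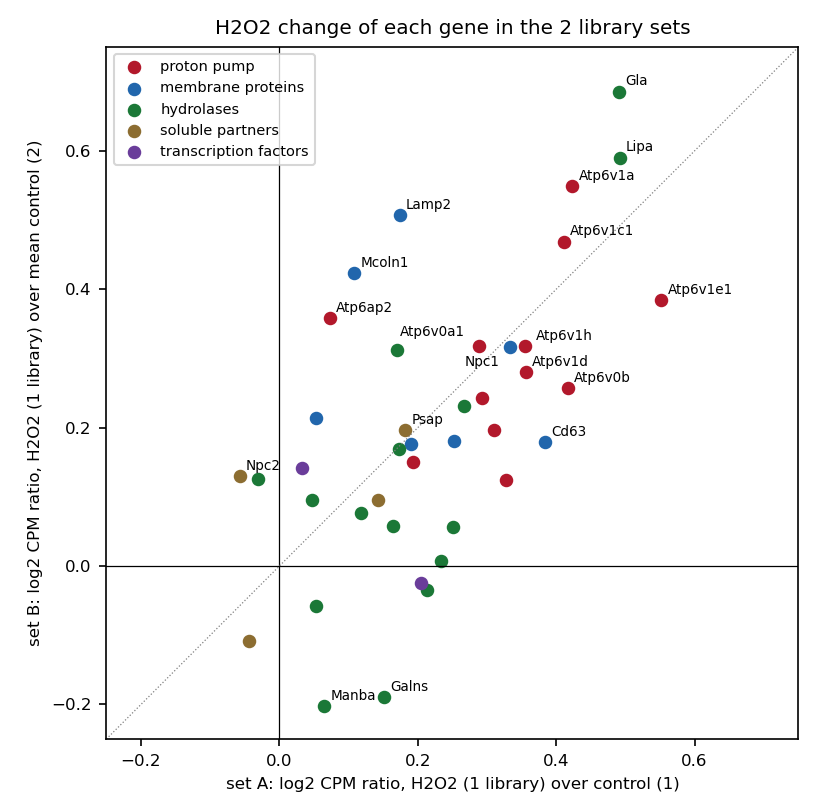
Log2 CPM ratio of H2O2 over control in set A (1 library against 1, horizontal) and in set B (1 library against the mean of 2, vertical) for the 40 genes, coloured by class; the dotted line marks equal changes. The 12 pump genes all fall in the quadrant that is positive on both axes, from 0.07 to 0.55 in set A and from 0.13 to 0.55 in set B, while Manba and Galns are positive in set A and negative in set B.

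Further lysosomal genes were read from lists that complement the 40. Of 10 tested among 17 other pump genes 2 rose and none fell, with a median of 0.17. The 2 are 20.0% of those tested, against 3.93% of all tested genes called higher. Atp6v0d2, a V0 subunit isoform known from osteoclasts and macrophages and the most abundant of that list, had 704 and 822 CPM in H2O2 replicates 1 and 2, against 537, 562 and 535 CPM in control replicates 1, 2 and 3 (log2 0.50 ± 0.074 SE, adjusted p = 0.0212 by edgeR). Its groups did not overlap. Rnasek, which encodes a pump-associated membrane protein, rose by 0.40 ± 0.076 on the log2 scale (adjusted p = 0.0286 by edgeR). Of the 10, 7 had a positive log2 change, against 51.6% of all tested genes, and 3 a negative one. The common direction of the 12 pump genes did not extend to every gene of this list. The V1 genes of this list, named after their values were seen, stood at -0.08 ± 0.080 for Atp6v1f, 0.23 ± 0.074 for Atp6v1g1 and -0.45 ± 0.264 for Atp6v1g2, and the V0 gene Atp6v0a2 at 0.01 ± 0.072, all without a call. Atp6v1g2, a scarce transcript at most 2.68 CPM in any library, lay lower in both H2O2 libraries than in all controls.

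Of 28 other membrane proteins 4 rose and none fell, with a median of 0.16. The 4 are 14.3% of the list, against 3.93% of all tested genes called higher. Hgsnat, which acetylates heparan sulfate during its breakdown, had 105 and 108 CPM in H2O2 replicates 1 and 2, against 57.4, 67.2 and 58.7 CPM in control replicates 1, 2 and 3 (log2 0.81 ± 0.083 SE, adjusted p = 0.00966 by edgeR). Slc11a1, the metal transporter NRAMP1 of phagosomes, had 65.2 and 44.5 CPM in H2O2 replicates 1 and 2, against 37.9, 21.9 and 17.0 CPM in control replicates 1, 2 and 3 (log2 1.01 ± 0.135 SE, adjusted p = 0.0177 by edgeR). In both genes every H2O2 library exceeded every control. Cd68, a macrophage glycoprotein, rose by 0.40 ± 0.065, and Laptm5, the most abundant, stood at 0.20 ± 0.076, both on the log2 scale.

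Of 33 other hydrolases 2 rose and 3 fell, with a median of 0.01. These are 6.06% and 9.09% of the list, near the 3.93% and 4.61% of all tested genes. Pld3, a nuclease of the phospholipase D family, rose by 0.33 ± 0.079. The carboxypeptidase gene Prcp and the Pld3 relative Pld4 fell, at -0.36 ± 0.066 and -0.42 ± 0.085 on the log2 scale. Lyz2, the lysozyme gene and the most abundant, stood at 0.22 ± 0.068.

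Among 16 genes of the MiT factors and their nutrient control 1 rose (6.25%), a share also near the 3.93% of all tested genes. Their median log2 change was 0.21, and 13 of the 16 were above 0, against 51.6% of all tested genes. At an unadjusted p under 0.05 in edgeR 9 were higher and 0 lower, against 13.7% and 14.1% of all tested genes. Fnip2, a partner of folliculin in the pathway that holds MiT factors in the cytosol, had 213 and 269 CPM in H2O2 replicates 1 and 2, against 163, 141 and 118 CPM in control replicates 1, 2 and 3 (log2 0.78 ± 0.152 SE, adjusted p = 0.0316 by edgeR), and Rragc, the most abundant, stood at 0.19 ± 0.074. The related factor genes Mitf and Tfec, named outside the rule for named genes, stood at 0.48 ± 0.137 and 0.40 ± 0.106 (adjusted p = 0.0758 and 0.0647 by edgeR). In sets A and B the log2 ratios were 0.14 and 0.73 for Mitf and 0.13 and 0.58 for Tfec. For Fnip2 they were 0.39 and 1.06. Of 12 genes of enzyme sorting 1 rose and 1 fell, which 12 genes cannot set apart from the shares over all tested genes. Cln8 rose by 0.54 ± 0.091, Cln6 was lower at -0.39 ± 0.089, and M6pr, a mannose 6-phosphate receptor and the most abundant, stood at 0.12 ± 0.064.

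Other gene groups moved with the treatment in the same libraries, where 3.93% of all tested genes were called higher and 4.61% lower. Of 15 cell cycle genes 14 fell, and their summed level was 675 and 373 CPM in H2O2 replicates 1 and 2, against 1567, 553 and 896 CPM in control replicates 1, 2 and 3. Of 11 dendritic cell markers 6 were lower and none higher, Cd74 and not Itgax among the lower ones, with sums of 6145 and 8135 CPM in H2O2 replicates 1 and 2, against 7554, 9338 and 9000.2 CPM in control replicates 1, 2 and 3. Macrophage and monocyte markers had a median log2 change of 0.22, against 0.20 for the 40 lysosomal genes, and 9 of 14 were above 0. None of the 14 was called higher, although 6 were higher and 4 lower at an unadjusted p under 0.05. Log2 changes over the 14 ran from -1.20 to 0.44, and 5 of them were below 0. The 2 called lower were C1qb and C1qc, which stood at or below 1.22 CPM in set B. The list had sums of 32155 and 39367 CPM in H2O2 replicates 1 and 2, against 28809, 32772 and 31328 CPM in control replicates 1, 2 and 3, nearly all of it Chil3. Markers of mast cells and basophils fell for 5 of 6 genes, and their sums were 4.55 and 14.9 CPM in H2O2 replicates 1 and 2, against 18.0, 47.3 and 73.4 CPM in control replicates 1, 2 and 3. Of 9 neutrophil markers 1 rose and 2 fell, with sums of 948 and 1708 CPM in H2O2 replicates 1 and 2, against 539, 1079.7 and 1181 CPM in control replicates 1, 2 and 3. Of 4 eosinophil markers 1 rose and 3 fell, and of 2 tested markers of T, NK and B cells none was called. The part of these groups in the lysosomal changes was not tested.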

How the data were processed

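The deposited files hold estimated counts of reads per gene (expected counts, 8.38% to 9.03% of values not whole), with no normalization, as the file headers (read_count) and library totals show. HISAT, Bowtie2 and GRCm38.p6 are named, without role or version, in the submitters' processing notes; counter, annotation release and strand setting: not given in the sources used here, so overlapping and antisense genes may share reads. Rows are NCBI Gene numbers, of which 99.73% matched a RefSeq gene table of GRCm38.p6.

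Counts were rounded, filtered with filterByExpr (minimum count 10, minimum total 15), scaled by TMM and fitted with edgeR 4.0.16 (R 4.3.3) with terms for set and treatment (2 residual degrees of freedom). An SE is the absolute log2 change over the square root of F. CPM uses TMM-adjusted library sizes, and SDs are over libraries. An exact permutation test of 2 against 3 libraries cannot go below 0.1 and was not used. Sets were split at 100 counts over 4 Y-linked genes. Alternatives used limma 3.58.1, DESeq2 1.42.0, other scalings and filters, no set term, a replicate block, and each library left out.

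The members, the lists and the set term were chosen with earlier results of these data known. Values in every library are given for called members, for the largest changes and most abundant gene of each class, and for Lamp1, Lamp2, Psap, Atp6v0c, Atp6v1a, Tfeb and Tfe3; other members shown this way were chosen after their values were seen. Of the further lists, called genes (up to 3 each way) and the most abundant are named, except some that are not reported here. Exon lengths came from GENCODE M21.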

Additional observations from a re-analysis of the deposited data

How the results depend on the processing

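The 9 calls among the members became 0 without the set term, 5 with the replicate block in place of it, 5 with library totals instead of TMM factors and 2 with no filter on low counts, and they ranged from 0 to 13 when 1 library was left out. Higher calls over all tested genes moved too. They were 480 of 12209 in the main fit, 0 without the set term, 220 with the block and 384 with library totals. With no filter they were 60 of 16398, and without control replicate 1 they were 1248 of 12003. With the block the members Atp6v0a1, Atp6v1d, Atp6v1h and Npc1 were no longer called. The replicate block pairs the first and second library of each group, whose deviations from the group means correlated with r = 0.81 and 0.714 over 12209 genes; that block also parts the sets, and the labels do not say what a shared number means. With DESeq2 size factors 6 members were called, and 9 with DESeq2, limma-voom or a filter of 1 CPM in 2 libraries. Of the 9 under DESeq2, 8 were the same genes, with Lamp2 in place of Atp6v1d. No setting called a member lower or, where run, called a member in the interaction test. With library totals the median of all tested genes lay at -0.06. The cause of these shifts was not tested. Fits without H2O2 replicate 1 or control replicate 1 leave set A with a single library, which then says nothing of the treatment, and the fit without H2O2 replicate 2 rests on 1 H2O2 library assumed to vary like the others. Depth limits little here, since the scarcest member value rests on 298 counts; the number of libraries does.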
